A study of Mus musculus with 9 samples.

Results

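The genes described here build ribosomes: RNA polymerase I with its factors, the small nucleolar ribonucleoprotein (snoRNP) cores that modify ribosomal RNA, the assembly factors of both ribosomal subunits, abundant nucleolar chaperones, and the transcription factor gene Myc. They were chosen by name from a list of 41 genes, each taken through probe sets that the platform annotation pairs with that symbol alone. Of the 41, 40 were measured, among 18193 genes tested in all. Npm3 had no such probe set and was not analysed here. The hearts came from male C57BL/6 mice that had 6 weeks earlier undergone either transaortic constriction (TAC, 4 arrays), a narrowing of the aorta that overloads the left ventricle and was meant to induce heart failure, or a sham operation (5 arrays). Total RNA of the left ventricle was hybridised to Affymetrix arrays. The labels give no age, batch or pairing, and replicate numbers here follow the order of the deposited samples and only name an array. They describe groups of mice without tying each array to its own animal, and p-values here reflect only the spread between arrays, part of which may be technical.

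Ribosome production starts in the nucleolus. RNA polymerase I transcribes the ribosomal DNA repeats into a long precursor RNA, snoRNPs guide the methylation and pseudouridylation of that precursor, and a large set of assembly factors folds and cuts it into the RNAs of the small and large subunits. In the heart, growth of muscle cells under pressure load is known to need more ribosomes, and MYC is a textbook activator of nucleolar genes.

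Values are log2 expression values made by the authors with RMA, for the brightest probe set of each gene. Differences are TAC minus sham on this log2 scale, from a limma fit over all 18193 genes with its standard error (SE), and a gene was called where its p, adjusted by Benjamini-Hochberg over all genes, was below 0.05. Every array held the same sorted values, so a general rise or fall of RNA cannot be seen. In tissue, a change in the share of a cell type and a change in RNA per cell cannot be told apart.

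Some facts of the whole series bear on these genes. The pressure overload markers Nppa, Nppb, Myh7 and Acta1 were higher in every TAC array than in every sham array and their mean level was 13.97 to 14.10 in TAC arrays, against 10.67 to 12.42 in sham arrays. The lowest correlation between arrays across genes was 0.995 within TAC and 0.987 within sham. Sham replicate 2 stood apart, with the lowest mean of that marker set. Its value was the lowest of the 5 sham arrays for 26 of the 40 members (65.0%), against 36.9% of all genes. Of 8 cardiomyocyte markers 0 rose and 1 fell, with mean levels of 13.989 to 13.998 in TAC arrays and 14.04 to 14.07 in sham arrays, so the labelled tissue was present in all arrays. Tnni3 was the one that fell (-0.16, adjusted p = 0.0475 in limma), and it lost its call without any 1 of 8 arrays, all but sham replicate 2 (adjusted p 0.0594 to 0.112), and with cyclic loess (adjusted p = 0.108).

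More of the ribosome biogenesis genes rose than fell in TAC ventricles, most of them by less than 1.5-fold. Of the 40 measured members 11 were higher in TAC (27.5%), against 12.8% of all genes, and 2 were lower (5%), against 12.3% of all genes. Together 13 were called (32.5%), and the share over all genes was 25.1%. The members were bright, with a median level of 9.54 against 7.65 over all genes. Among genes brighter than the median gene, 16 of 36 members were higher and 3 lower. Of all genes in that setting 21.2% were higher and 24.2% lower. The median difference of the members was 0.16, beside 0.00 over all genes, and 31 members had a positive difference. These shares describe the listed genes, and no test of the list was made. The members were chosen with earlier results of these data known, so the shares are not independent of these data. The genes that rose were Myc, Rrp12, Nhp2, Gar1, Gnl3, Bop1, Npm1, Nop14, Ncl, Ddx21 and Noc2l, and the genes that fell were Polr1a and Dkc1. Apart from Myc and Rrp12, no called member differed by more than 0.66. Without sham replicate 2 the counts were 13 higher and 3 lower, with Wdr43 and Noc3l called higher and Rrp9 called lower beside the 13, and without TAC replicate 3 they were 8 and 0. Those settings called 13.1% and 13.9%, and 9.73% and 8.82%, of all genes. The members lower also numbered 0 without TAC replicate 2, where 9.56% of all genes were lower. They numbered 1 without sham replicate 3, 4 or 5, where 10.5%, 10% and 11.7% of all genes were lower. With each array centred on its median over genes, 1978 of all genes were higher and 2907 lower, where 2333 and 2232 were so without centring, and 11 members were higher and 3 lower.

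All 4 TAC values lay above all 5 sham values for 12 members (13% of all genes did so) and below them for 3 members (12.2% of all genes). Gnl3 was the only called member whose groups overlapped. Polr1c, Wdr43 and Rrp1b had separate groups without passing the threshold. Of the 27 members that were not called, 8 had an unadjusted p below 0.05 in limma, namely Polr1c, Fbl, Nop58, Wdr43, Heatr1, Pes1, Rrp1b and Noc3l. Called or not, 21 of the 40 members had such a p, beside 6519 of all 18193 genes. Counts of such p given below for single roles and lists are to be set beside that background.

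**Figure D1:**
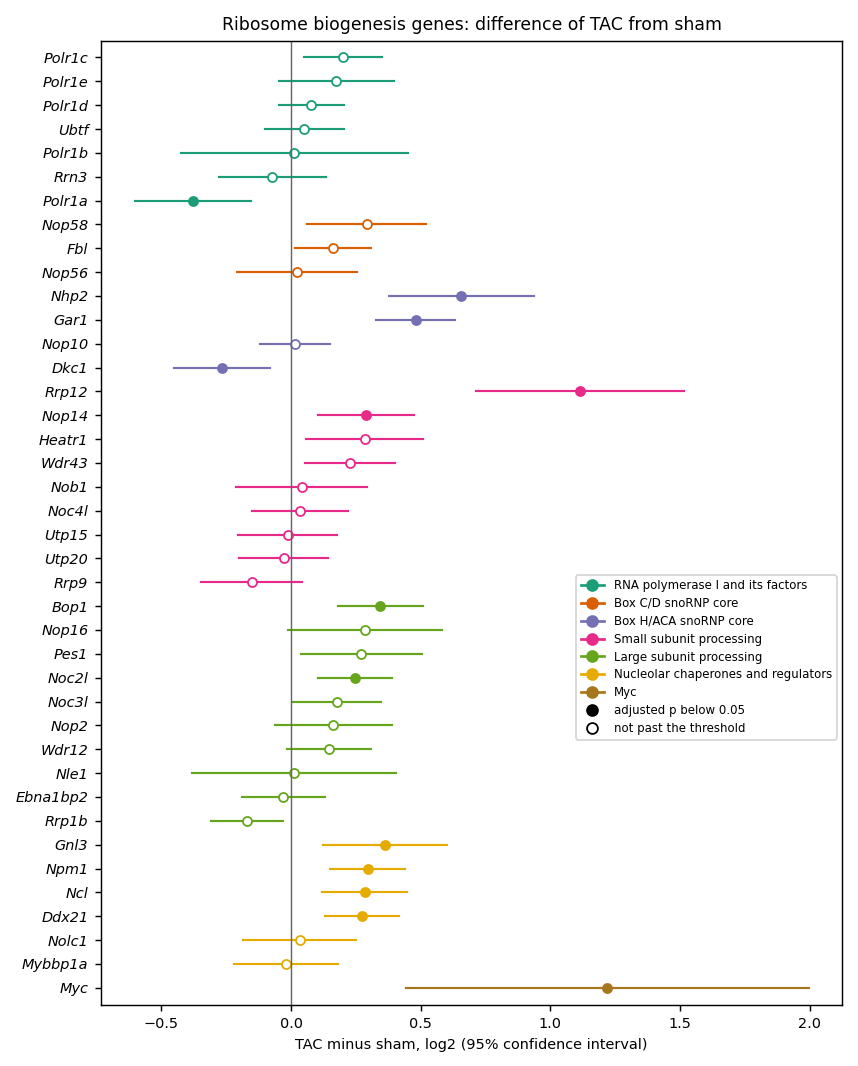
Difference of TAC from sham for each of the 40 members, on the log2 scale (x axis), with 95% confidence intervals as bars, ordered by role and then by size. Filled points passed an adjusted p below 0.05; 11 lie right of 0 and 2, Polr1a and Dkc1, lie left of it.

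Myc showed both the highest difference among the members and the widest spread. Its only probe set read 8.74, 6.90, 8.64 and 7.37 in the TAC arrays, against 6.30, 6.74, 6.79, 6.83 and 6.82 in the sham arrays. TAC replicates 1 and 3 were well above the other two TAC arrays, while the sham arrays lay close together apart from sham replicate 1, and the groups did not overlap. Myc averaged 7.91 ± 0.92 in TAC (SD, n = 4) and 6.69 ± 0.22 in sham (SD, n = 5), a rise of 1.22 (SE 0.35, adjusted p = 0.0273 in limma) or 2.33-fold. The call ended without TAC replicate 1 (0.94, adjusted p = 0.0761), without TAC replicate 3 (0.98, adjusted p = 0.0862) or without sham replicate 1 (1.12, adjusted p = 0.0552).

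**Figure D2:**
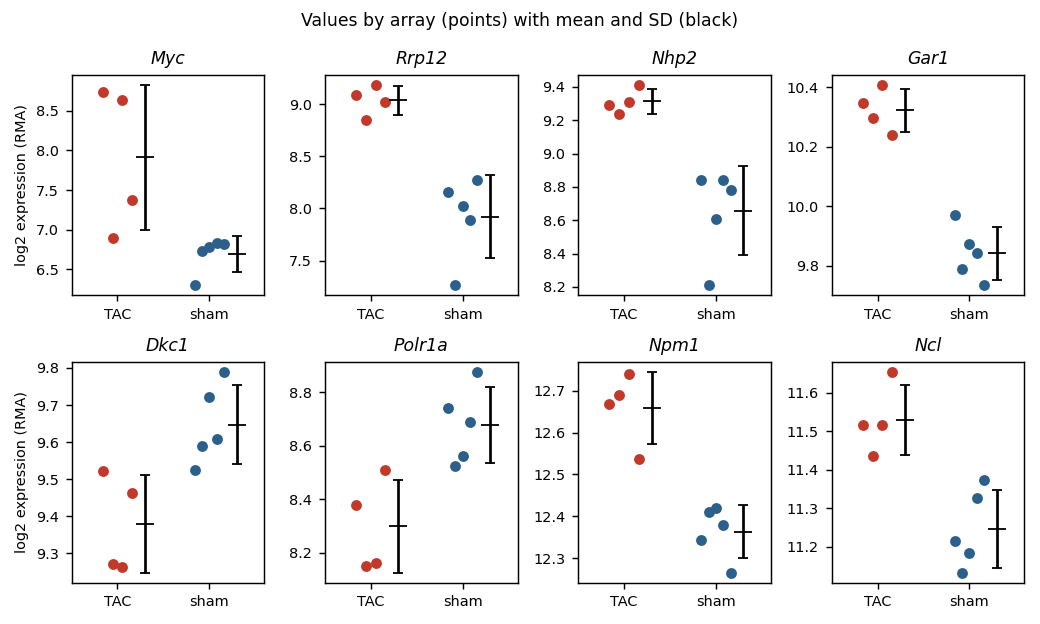
Log2 expression (y axis) of 8 members in each TAC array (red, left) and each sham array (blue, right), with the mean and SD of each group in black. In all 8 genes the TAC and sham points do not overlap; Dkc1 and Polr1a are lower in TAC, the other 6 are higher, and Myc has 2 high and 2 lower TAC arrays.

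No gene of the RNA polymerase I set was called higher. Of 7 measured members 0 rose and 1 fell, with a median of 0.05, and 2 of the 7 had an unadjusted p below 0.05 in limma. Over all genes 12.8% were higher and 12.3% lower, the shares to set beside the counts of this and each further role. Polr1c alone was called higher in the fit with a variance trend (adjusted p = 0.0392). The gene that fell was Polr1a, which encodes the largest catalytic subunit. Its values were 8.38, 8.15, 8.16 and 8.51 in TAC and 8.74, 8.53, 8.56, 8.69 and 8.88 in sham, so the TAC arrays lay just below the sham range. The difference was -0.38 (SE 0.10, adjusted p = 0.0194), or 1.30-fold lower in TAC. All 5 of its probe sets had negative differences, from -0.38 to -0.01, and a dimmer one also fell (-0.27, adjusted p over all probe sets = 0.0341). The dimmest of them, with mean levels of 2.83 and 2.55, were near the lowest value of the arrays, 2.25, so their sign says little. The call was lost without TAC replicate 2 (adjusted p = 0.0627) or TAC replicate 3 (adjusted p = 0.0656).

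Polr1b, which encodes the other large catalytic subunit, differed by 0.01 with a 95% confidence interval of -0.43 to 0.45, so a moderate change either way lies within its error. The TAC values of Polr1b ran from 6.58 to 6.85, and the sham values from 6.04 in sham replicate 2 to 7.11 in sham replicate 1. Ubtf, whose product UBF binds ribosomal DNA and opens it for transcription, differed by 0.05 (95% confidence interval -0.10 to 0.20). Rrn3, which encodes the initiation factor that couples the polymerase to growth signals, differed by -0.07 (-0.28 to 0.13). The subunit gene Polr1e differed by 0.18 (-0.05 to 0.40). For these 4 genes the intervals include 0, and the precision allows changes of up to 0.45 in size.

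Polr1c and Polr1d encode 2 subunits that RNA polymerases I and III share. Polr1c read 9.999, 9.90, 10.14 and 10.03 in TAC, against 9.84, 9.73, 9.88, 9.79 and 9.86 in sham. Each TAC array was above each sham array, and the difference of 0.20 (SE 0.07) missed the threshold (adjusted p = 0.0545). Polr1c was called with cyclic loess (limma adjusted p = 0.0277), among genes brighter than the median gene (0.0208) and without TAC replicate 2 (0.0461). Its other probe set differed by 0.01, and there the groups overlapped. Polr1d depended on the probe set. Its brightest probe set averaged 12.19 ± 0.02 in TAC and 12.11 ± 0.05 in sham (SD, n = 4 and 5), a difference of 0.08 that was not called (adjusted p = 0.357). Its 3 dimmer probe sets all rose, by 0.66, 0.70 and 0.75 (adjusted p over all probe sets = 0.000701, 0.000228 and 0.000835), with no overlap between the groups. The brightest of these 3, for example, read 9.86, 9.84, 9.78 and 9.88 in TAC and 9.34, 8.95, 9.15, 9.35 and 9.09 in sham. Which transcripts each probe set detects was not examined.

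The H/ACA snoRNP core, which converts uridines of ribosomal RNA to pseudouridine and also stabilises telomerase RNA, split by subunit. Of its 4 genes 2 rose, 1 fell and 1 was not called. Nhp2, which encodes a small RNA-binding subunit, read 9.29, 9.24, 9.31 and 9.41 in TAC and 8.84, 8.21, 8.61, 8.84 and 8.78 in sham. All TAC values were above all sham values. It rose by 0.66 (SE 0.13, adjusted p = 0.00362), or 1.58-fold, and the lowest sham value came from sham replicate 2. Without that array the rise was 0.54, and the call held without any single array. Its dimmer probe set differed by 0.47 and did not pass over all probe sets (adjusted p = 0.0605). The brightest probe set of Nhp2 has a suffix for shared sequence (_s_at), which the dimmer one lacks. In the other ways of processing the values the call held, with a highest adjusted p of 0.0483 in limma.

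Gar1, a subunit that helps release the modified RNA, read 10.35, 10.30, 10.41 and 10.24 in TAC and 9.97, 9.79, 9.87, 9.84 and 9.73 in sham. It rose by 0.48 (SE 0.07, adjusted p = 0.000593), or 1.40-fold, the smallest adjusted p of the members. Its values were tight in both groups. Its only probe set has a suffix for shared sequence (_s_at), so no other probe set of Gar1 could check the rise. Dkc1, which encodes dyskerin, the pseudouridine synthase of the complex, went the other way, with 9.52, 9.27, 9.26 and 9.46 in TAC and 9.52, 9.59, 9.72, 9.61 and 9.79 in sham. TAC replicate 1 nearly met sham replicate 1, at 9.523 and 9.524, so the groups only just separated. Dkc1 fell by 0.27 (SE 0.08, adjusted p = 0.0393), and the call ended without any 1 of 5 arrays, sham replicates 3, 4 and 5 and TAC replicates 2 and 3 (adjusted p 0.0655 to 0.119). In the fit of all probe sets Dkc1 was past the threshold at its dimmest probe set (-0.34, adjusted p = 0.0473) but not at its brightest (adjusted p = 0.0594). With the brightest probe set that lacks a suffix for shared sequence in its place, the difference was -0.13 and was not called (adjusted p = 0.245). Nop10, the smallest subunit, differed by 0.02 (95% confidence interval -0.12 to 0.15) with 13.04 ± 0.06 in TAC and 13.02 ± 0.06 in sham (SD, n = 4 and 5).

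The promoter windows of these 4 genes are shown because the proteins act in 1 complex while the transcripts moved in different directions, and that of Pes1 because it holds an E-box. Each runs from 250 bases before to 50 bases after the transcript start, 5′ to 3′ on the gene's strand, from RefSeq (GRCm38.p6): Dkc1 at chrX:75095604-75095903 (+ strand), Nhp2 at chr11:51619523-51619822 (+ strand), Gar1 at chr3:129831347-129831646 (- strand), Nop10 at chr2:112261676-112261975 (+ strand) and Pes1 at chr11:3963725-3964024 (+ strand). Capitals mark matches to CCGGAAG on either strand, a core bound by ETS factors, or to CACGTG, the palindromic E-box bound by MYC with MAX.
Dkc1: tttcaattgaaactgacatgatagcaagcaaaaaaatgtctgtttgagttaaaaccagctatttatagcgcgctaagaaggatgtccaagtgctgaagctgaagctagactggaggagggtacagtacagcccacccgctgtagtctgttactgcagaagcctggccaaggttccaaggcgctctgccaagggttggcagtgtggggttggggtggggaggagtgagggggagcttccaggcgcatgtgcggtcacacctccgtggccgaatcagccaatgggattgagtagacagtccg
Nhp2: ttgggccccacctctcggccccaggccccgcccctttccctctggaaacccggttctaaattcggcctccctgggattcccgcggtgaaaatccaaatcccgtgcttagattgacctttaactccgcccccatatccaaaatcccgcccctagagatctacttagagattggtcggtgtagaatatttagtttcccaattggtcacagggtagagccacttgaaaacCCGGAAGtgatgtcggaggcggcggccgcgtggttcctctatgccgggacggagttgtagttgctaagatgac
Gar1: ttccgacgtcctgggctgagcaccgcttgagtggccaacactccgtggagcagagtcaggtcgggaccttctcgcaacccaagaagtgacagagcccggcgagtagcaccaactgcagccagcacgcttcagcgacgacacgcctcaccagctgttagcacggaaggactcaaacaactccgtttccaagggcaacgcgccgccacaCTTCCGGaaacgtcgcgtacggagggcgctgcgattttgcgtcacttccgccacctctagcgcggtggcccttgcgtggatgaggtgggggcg
Nop10: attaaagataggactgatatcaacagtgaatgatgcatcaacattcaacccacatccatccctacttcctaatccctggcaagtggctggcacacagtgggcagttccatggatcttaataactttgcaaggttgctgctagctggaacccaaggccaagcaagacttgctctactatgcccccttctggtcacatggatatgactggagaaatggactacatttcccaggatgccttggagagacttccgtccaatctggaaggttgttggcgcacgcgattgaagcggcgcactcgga
Pes1: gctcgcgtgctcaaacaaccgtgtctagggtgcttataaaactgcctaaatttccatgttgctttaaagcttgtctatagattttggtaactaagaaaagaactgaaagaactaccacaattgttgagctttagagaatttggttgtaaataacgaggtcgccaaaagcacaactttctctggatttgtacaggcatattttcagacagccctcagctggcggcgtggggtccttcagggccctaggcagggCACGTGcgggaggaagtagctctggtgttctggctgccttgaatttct
Nhp2 and Gar1, the genes that rose, each held 1 CCGGAAG match, and Dkc1 and Nop10 held none of either motif.

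Windows were found for 36 of the 41 listed genes, 35 of them measured, with Rrp12, Bop1, Npm1, Fbl and Myc the genes without one. CCGGAAG was present in 11 of the 35 measured genes (31.4%), against 2165 of the 14452 tested genes with a window. The other 9 were Polr1c, Polr1e, Rrn3, Heatr1, Nop2, Ebna1bp2, Noc2l, Noc3l and Nolc1. CACGTG was present in 7 of the 35, against 1479 of those 14452 (10.2%), namely Rrn3, Utp20, Wdr43, Nop2, Pes1, Nle1 and Mybbp1a. None of these 7 was called in limma. Among the 9 called members with a window, 3 held CCGGAAG and 0 held CACGTG. Among the 26 members with a window that were not called, 8 held CCGGAAG (30.8%) and 7 held CACGTG. Both strands were searched. Matches to CCGGAAG on opposite strands can share bases, and a gene was counted once for a motif however many matches it held. A match in letters is not a bound site, and its absence says nothing about sites outside these windows.

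The box C/D snoRNP core guides methylation of ribose in ribosomal RNA, and 0 of its 3 genes were called, although 2 had an unadjusted p below 0.05 in limma. Nop58, a scaffold subunit, read 9.28, 9.36, 9.70 and 9.49 in TAC and 9.11, 8.94, 9.28, 9.20 and 9.30 in sham. Its groups overlapped, and the difference of 0.29 (SE 0.10) missed the threshold (adjusted p = 0.0658). Fbl, which encodes the methyltransferase fibrillarin, differed by 0.16 at its brightest probe set (adjusted p = 0.100). Its other probe set rose by 0.28 (adjusted p over all probe sets = 0.0163), with 9.16 to 9.31 in TAC against 8.82 to 8.99 in sham. Nop56, the other scaffold subunit, differed by 0.02 (95% confidence interval -0.21 to 0.25). Fbl and Nop58 were called with cyclic loess, at 17 members higher in all, where 13.8% of all genes were higher. Both were also called among genes brighter than the median gene (limma adjusted p = 0.0423 and 0.0342). Fbl was called with the mean of its probe sets (0.0170) and without _x_at or _s_at probe sets (0.00855), and Nop58 with a variance trend (0.0449).

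Rrp12 had the highest difference among the factors of the small subunit. In yeast its product helps to export precursors of both subunits from the nucleus. Rrp12 read 9.08, 8.85, 9.19 and 9.02 in TAC and 8.16, 7.26, 8.03, 7.89 and 8.27 in sham. Every TAC array was above every sham array by a clear gap, and sham replicate 2 was the lowest. It rose by 1.11 (SE 0.18, adjusted p = 0.00132), or 2.16-fold, and by 0.95 without sham replicate 2. The call held without any single array, with a highest adjusted p of 0.00656 in limma.

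Of the 9 genes of this role 2 rose and 0 fell, with a median of 0.04, and no other member than Rrp12 and Nop14 passed. Nop14 encodes a factor of the small subunit processome, the large particle that forms on the nascent precursor. It read 9.70, 9.65, 9.70 and 9.79 in TAC and 9.42, 9.26, 9.31, 9.49 and 9.64 in sham, and TAC replicate 2 was just above sham replicate 5. It rose by 0.29 (SE 0.08, adjusted p = 0.0280), a call lost without sham replicate 3 or TAC replicates 1, 3 or 4 (adjusted p 0.0646 to 0.0699). Heatr1 and Wdr43, whose yeast counterparts (Utp10 and Utp5) belong to the first subcomplex to join the precursor, differed by 0.28 (adjusted p = 0.0655) and 0.23 (adjusted p = 0.0567) and did not pass. Wdr43 read 10.71 to 10.88 in TAC and 10.39 to 10.69 in sham, without overlap. It was called with 6 of the 9 other ways of processing the values, and Heatr1 with 4. The dimmer probe sets of Heatr1 did not rise, at -0.01 and -0.08, and the mean of its probe sets differed by 0.07 (adjusted p = 0.609 in limma). Wdr43 was also called without sham replicate 2 (0.26, adjusted p = 0.0341), and Heatr1 without sham replicate 5 (0.35, adjusted p = 0.0212).

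The rest of the small subunit genes were not called. Noc4l, which in yeast pairs with Nop14, differed by 0.03 and Nob1, the nuclease that makes the final cut at the 3′ end of the small subunit RNA, by 0.04. Utp15 and Utp20, also processome factors, differed by -0.01 and -0.03. Rrp9, a protein of the U3 snoRNP, differed by -0.15 (adjusted p = 0.253). Rrp9 was called lower without sham replicate 2 (-0.22, adjusted p = 0.0428) and with array weights (-0.19, adjusted p = 0.0434). The 95% confidence intervals of these 5 genes ran from -0.35 at the lowest to 0.29 at the highest.

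Among the 10 factors of the large subunit 2 rose and 0 fell, with a median of 0.17, and 5 had an unadjusted p below 0.05 in limma. Bop1, Pes1 and Wdr12 encode the PeBoW complex, which is needed to mature the large subunit RNAs. Bop1 read 9.29, 9.32, 9.30 and 9.48 in TAC and 9.02, 8.84, 8.98, 9.08 and 9.10 in sham, with no overlap. It rose by 0.34 (SE 0.07, adjusted p = 0.00672), and its dimmer probe set rose by 0.48 (adjusted p over all probe sets = 0.0170). That dimmer probe set was faint, averaging 4.37 in TAC and 3.89 in sham. Pes1 differed by 0.27 (SE 0.11, adjusted p = 0.0882) with 9.226 to 9.469 in TAC and 8.734 to 9.233 in sham, so that the groups overlapped slightly. Wdr12 differed by 0.15 (adjusted p = 0.181). Pes1 was called higher with cyclic loess (limma adjusted p = 0.0423) and among genes brighter than the median gene (0.0485). The dimmer probe set of Pes1 differed by 0.44 without overlap and did not pass over all probe sets (adjusted p = 0.152). Only Bop1 of the 3 partners passed in the fit over genes, and whether the partners differ from one another was not tested.

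Noc2l rose by 0.25 (SE 0.06, adjusted p = 0.0184), and its dimmer probe set by 0.46 (adjusted p over all probe sets = 0.00630). It encodes a nucleolar protein that in yeast travels with early large subunit precursors. Noc2l read 9.08, 9.19, 9.14 and 9.23 in TAC and 8.96, 8.85, 8.81, 8.94 and 8.997 in sham, and the call ended without TAC replicate 2 (adjusted p = 0.0548). Noc3l, its yeast partner, differed by 0.18 (adjusted p = 0.129). Noc3l was called higher without sham replicate 2 (0.22, adjusted p = 0.0427), with the mean of its probe sets (adjusted p = 0.0327) and with array weights (adjusted p = 0.0386). Nop16 differed by 0.28 (adjusted p = 0.156), and by 0.37 without sham replicate 1, where it was called (adjusted p = 0.0462). Nop2, which encodes a methyltransferase of the large subunit RNA, differed by 0.16 (adjusted p = 0.287). Nle1 and Ebna1bp2, both assembly factors, differed by 0.01 and -0.03. Rrp1b was lower in each TAC array (8.80 to 8.93) than in each sham array (9.01 to 9.17), and its difference of -0.17 did not pass (adjusted p = 0.0739), while its other 2 probe sets differed by -0.01 and 0.13. Rrp1b was called lower with array weights (adjusted p = 0.0356), with centred arrays (adjusted p = 0.0229) and among genes brighter than the median gene (adjusted p = 0.0272).

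Of the abundant nucleolar proteins 4 of 6 measured genes were higher and 0 lower, with a median of 0.28. Npm1, which encodes nucleophosmin, a histone and ribosome chaperone, read 12.67, 12.69, 12.74 and 12.54 in TAC and 12.34, 12.41, 12.42, 12.38 and 12.27 in sham, with no overlap. It rose by 0.30 (SE 0.07, adjusted p = 0.00784), or 1.23-fold, and its dimmer probe set by 0.25 (adjusted p over all probe sets = 0.0483). Ddx21, an RNA helicase that acts on both polymerase I transcripts and snoRNAs, rose by 0.27 (SE 0.06, adjusted p = 0.0103). It read 12.03 to 12.24 in TAC and 11.84 to 11.95 in sham, and its dimmer probe set rose by 0.62 (adjusted p over all probe sets = 0.000434). Npm1, Ddx21 and Ncl stayed past the threshold without any single array.

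Ncl encodes nucleolin, which binds precursor ribosomal RNA. It read 11.52, 11.44, 11.52 and 11.65 in TAC and 11.22, 11.13, 11.18, 11.33 and 11.37 in sham. Each TAC array was above each sham array, and Ncl rose by 0.28 (SE 0.07, adjusted p = 0.0179). Of its 5 probe sets 3 rose, by 0.28, 0.28 and 0.66, and 2 did not pass, at 0.08 and 0.00. Gnl3, which encodes nucleostemin, a nucleolar GTPase, rose by 0.36 (SE 0.11, adjusted p = 0.0318). It read 11.15, 11.08, 11.36 and 11.23 in TAC and 10.88, 10.57, 10.79, 10.85 and 11.12 in sham, so sham replicate 5 was above TAC replicate 2. The Gnl3 call was lost without sham replicates 3 or 4 or TAC replicates 1, 3 or 4 (adjusted p 0.0594 to 0.101). Nolc1, a snoRNP chaperone, differed by 0.03 (95% confidence interval -0.19 to 0.25), and Mybbp1a, a nucleolar repressor of transcription, by -0.02 (-0.22 to 0.18).

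**Figure D3:**
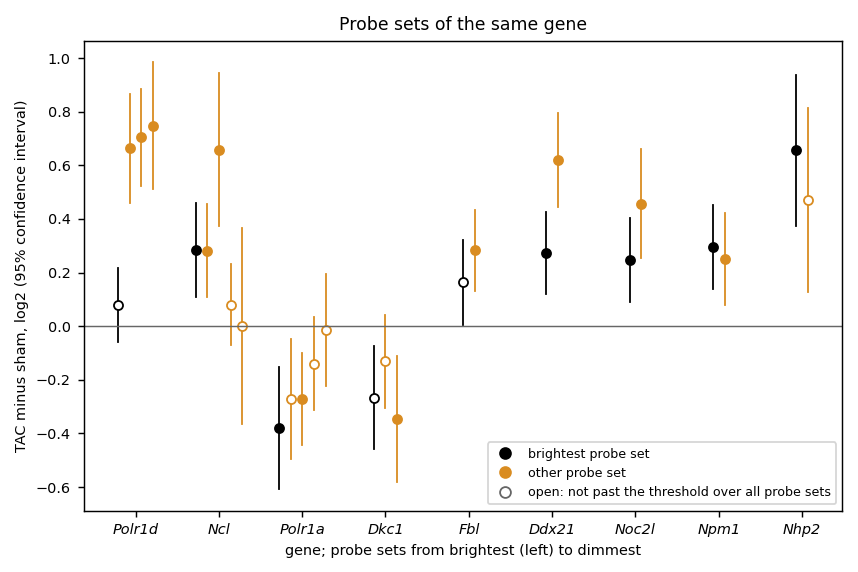
Difference of TAC from sham (y axis, log2, with 95% confidence intervals) for every probe set of 9 members, from the brightest (black, left) to the dimmest; open points did not pass over all probe sets. The brightest probe set of Polr1d is at 0.08 while its 3 others are at 0.66 to 0.75, and the 5 of Ncl run from 0.00 to 0.66.

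Other probe sets were read as a check on the choice of the brightest. The 40 members had 83 probe sets, 13 members having only 1. Of the 43 others 10 rose and 2 fell, where over all 45037 probe sets 8.87% rose and 8.86% fell. Among members not called in the fit over genes, only Polr1d and Fbl had another probe set that was called over all probe sets. Within the fit of all probe sets Dkc1 was also not called at its brightest (limma adjusted p = 0.0594) but was called lower at its dimmest (0.0473). With the mean of all probe sets of a gene 15 members were higher and 2 lower, and Polr1d then rose by 0.55. In that setting 12.6% of all genes were higher and 11.5% lower.

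The arrays of a group did not sit at the same level across the members. The mean level of the 40 members was 9.76, 9.65, 9.81 and 9.77 in the TAC arrays and 9.62, 9.42, 9.55, 9.61 and 9.66 in the sham arrays. TAC replicate 2 had the lowest TAC value for 22 of the 40 members (55.0%), against 22.4% of all genes, and was just below sham replicate 5 in this mean. A sign of RNA quality, how far the 3′ control probe sets of actin and GAPDH exceeded the 5′ ones, was 0.90 to 0.93 in TAC arrays and 0.90 to 1.16 in sham arrays, with 0.90 in sham replicate 2. Its part in these results was not tested.

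**Figure D4:**
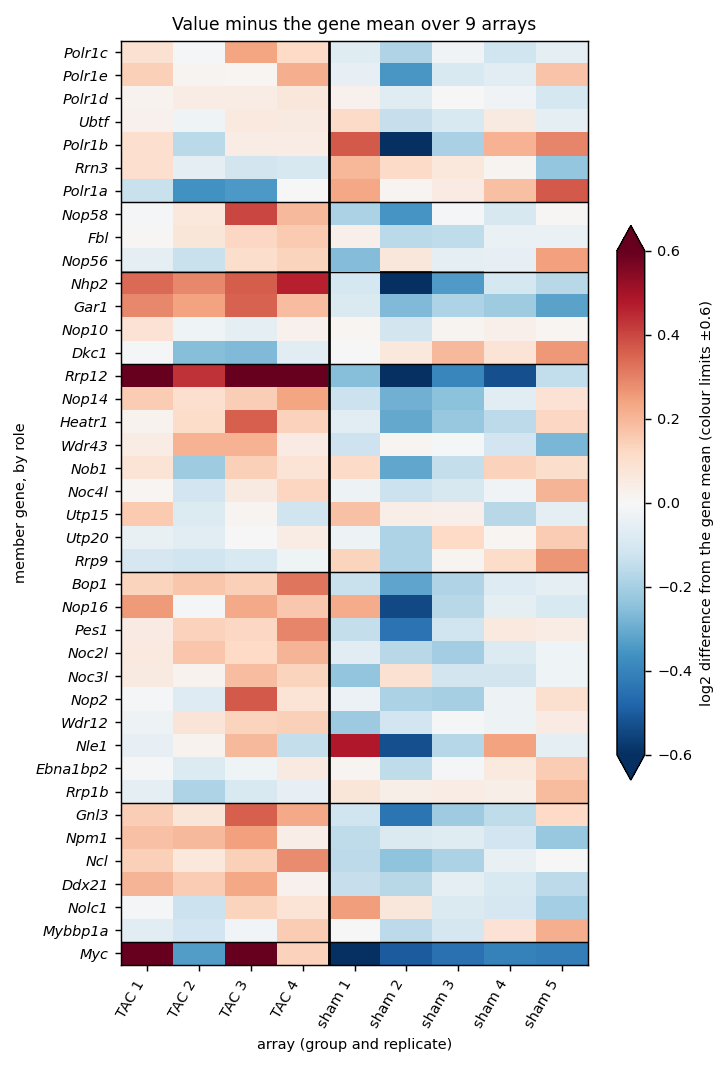
Value of each of the 40 members (rows, by role) in each array (columns, TAC left of the black line and sham right of it), as the log2 difference from the gene's mean over 9 arrays; colours end at ±0.6. Sham replicate 2 is the bluest column, lowest of the sham arrays in 26 rows, and Polr1a and Dkc1 are blue in TAC against the red of Nhp2, Gar1 and Rrp12.

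Markers of other cell types moved between the groups beside these genes. Over all genes 12.8% rose and 12.3% fell. Of 8 fibroblast markers 6 rose and 0 fell, and their mean level was 11.57 to 11.91 in TAC arrays and 10.61 to 11.01 in sham arrays, with Col1a2 higher by 1.28, Col1a1 by 0.92 and Postn by 3.28. Of 8 macrophage markers 6 rose and 0 fell, at 9.36 to 9.51 in TAC and 8.61 to 8.998 in sham, with Adgre1 higher by 0.97, C1qa by 0.70 and Cd14 by 0.96. Cell cycle markers also moved, with 3 of 7 higher and 0 lower at 8.21 to 8.85 in TAC and 7.24 to 8.09 in sham. Birc5 rose by 1.26, Cdk1 by 0.96 and Ccna2 by 1.196; Cdk1 and Ccna2 lost their calls without any array but sham replicate 2 (adjusted p 0.0503 to 0.128), and Birc5 without TAC replicates 1, 3 or 4 (adjusted p 0.0528 to 0.0735).

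Of 7 lymphocyte markers 1 rose, the pan-leukocyte gene Ptprc (0.78), at 6.05 to 6.42 in TAC and 5.91 to 6.22 in sham. Ptprc did not pass with the mean of its probe sets (0.40, adjusted p = 0.0645). Of 8 endothelial markers 1 rose, Vwf (0.44), and 1 fell, Kdr (-0.25), at 10.16 to 10.29 in TAC and 10.16 to 10.46 in sham. Kdr lost its call without any 1 of 6 arrays, sham replicates 1, 4 and 5 and TAC replicates 1, 2 and 3 (adjusted p 0.0538 to 0.0859). Array values have no true 0, so no marker can be called absent. The part that cell makeup played in the nucleolar genes was not tested.

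Beyond the listed members, other genes of ribosome production were read from further lists. The counts of each list are to be set beside the shares over all genes, 12.8% higher and 12.3% lower. Of 48 other small subunit factors 8 rose and 1 fell, with a median of 0.08, and of 52 other large subunit factors 10 rose and 2 fell, with a median of 0.05. Both lists together held 18% higher and 3% lower genes. All the further lists together, 213 genes, held 12.2% higher, near the share over all genes, and 4.69% lower. Among small subunit factors Tsr1, a GTPase-like protein of late precursors, rose by 0.69 (SE 0.11, adjusted p = 0.00132), the RNA helicase gene Dhx37 by 0.80 (SE 0.13) and Wdr75 by 0.40 (SE 0.08), whereas Imp3, a U3 snoRNP protein, fell by 0.26 (adjusted p = 0.0102). Wdr75 did not pass with the mean of its probe sets (0.12, adjusted p = 0.291).

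Among large subunit factors Mak16 rose by 0.53 (SE 0.08, adjusted p = 0.000852), Gtpbp4, a GTPase of early precursors, by 0.46 (SE 0.08) and Eif6, which keeps the large subunit from joining the small one too early, by 0.41 (SE 0.06). Nop53 fell by 0.24 and Rsl24d1 by 0.26. Nop53 did not pass with the mean of its probe sets (-0.08, adjusted p = 0.410), and Rsl24d1 lost its call with cyclic loess (adjusted p = 0.0638) and without any 1 of 7 arrays, all but sham replicate 5 and TAC replicate 1 (adjusted p 0.0553 to 0.107). The snoRNP assembly factors had 1 of 9 higher, Znhit6 by 0.64 (SE 0.06, adjusted p = 5.21e-05), and 1 lower, Ruvbl2 by -0.37, whose call ended without sham replicate 4 or TAC replicates 1, 2 or 3 (adjusted p 0.0517 to 0.0680).

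The other RNA polymerase I genes had 0 of 11 higher, 2 lower and a median of -0.09. Both that fell, Polr2e (-0.27) and Polr2f (-0.27), encode subunits shared by all 3 nuclear polymerases. Neither passed with the mean of its probe sets (-0.06, adjusted p = 0.527, and -0.13, adjusted p = 0.147), and Polr2f was lost without TAC replicate 3 (adjusted p = 0.0664) and Polr2e without any 1 of 6 arrays, sham replicates 1, 4 and 5 and TAC replicates 1, 2 and 3 (adjusted p 0.0578 to 0.101). Of the 11 genes 4 had an unadjusted p below 0.05 in limma. None of 15 RNA exosome genes, which trim ribosomal RNA precursors, was called in limma, and 1 had an unadjusted p below 0.05.

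RNA polymerase III, which makes the 5S ribosomal RNA and transfer RNAs, had 3 of 21 genes higher and 2 lower. These shares (14.3% and 9.52%) were near those over all genes (12.8% and 12.3%). Polr3g, a subunit typical of growing and undifferentiated cells, rose by 0.84 (SE 0.10, adjusted p = 0.000224), Gtf3c6 by 0.36 and Crcp by 0.26, while Gtf3c1 fell by 0.35 and Maf1, a repressor of polymerase III, by 0.28. Crcp was lost without sham replicate 1 or TAC replicates 1, 2 or 3 (adjusted p 0.0524 to 0.0831), Maf1 without sham replicate 4 or TAC replicates 1, 2 or 3 (adjusted p 0.0611 to 0.0841), and Gtf3c1 with the mean of its probe sets (adjusted p = 0.0536). Among 14 MYC partners and relatives 1 rose and 2 fell. Max, the partner with which MYC binds DNA, fell by 0.35 (SE 0.08, adjusted p = 0.00857), and Fbxw7, whose product marks MYC for degradation, fell by 0.66 (SE 0.10, adjusted p = 0.00113). Mxd3, of the MAX-binding antagonist family, rose by 0.48 (SE 0.09, adjusted p = 0.00281).

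The structural proteins of the ribosome were read as a further list. Of 78 cytosolic ribosomal protein genes 43 were measured under a single symbol, and 3 rose and 0 fell, with a median of 0.06. Rpl12 rose by 0.96, Rps25 by 0.50 and Rpl14 by 0.34, and Rpl14 lost its call without TAC replicate 1 (adjusted p = 0.0516). These 3 calls came from dim probe sets of the list, with means of 7.95 in TAC and 6.98 in sham for Rpl12, 9.16 in TAC and 8.66 in sham for Rps25, and 8.04 in TAC and 7.70 in sham for Rpl14. The other 40 had 95% confidence intervals between -0.21 and 0.45. The median level of the 43 genes over all arrays was 13.48, near the top of the scale, which ends at 14.80, and probes of such genes can read processed pseudogenes.

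**Figure D5:**
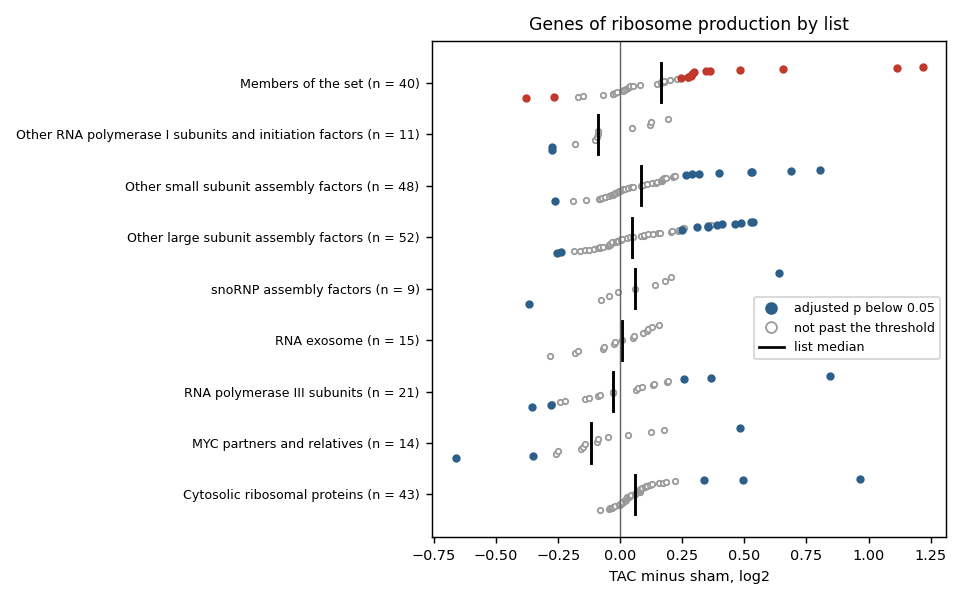
Difference of TAC from sham (x axis, log2) for the members (top row, red where called) and for genes of 8 further lists (blue where called), 1 point per gene, with the median of each list as a black bar. The medians run from -0.12 for MYC partners to 0.16 for the members, and no exosome gene was called.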

How the data were processed

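The authors deposited log2 expression values. The submitters' processing notes name RMA, a method that subtracts background, gives all arrays the same distribution and summarises probes into probe sets, and its software and genome build are not given in the sources used here. In all, the table held 45101 probe sets, 64 of them controls, for 9 arrays, whose small number limits precision. The platform annotation gave 34945 probe sets 1 gene symbol, 932 several and 9160 none. The brightest probe set by mean over all arrays stood for each of 18193 genes. Of the 40 brightest probe sets of members, 9 have a suffix that marks shared sequence (_x_at or _s_at).

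TAC was set against sham in limma (version 3.58.1, R 4.3.3), with lmFit and eBayes (two-sided, no covariate, 7 residual and 3.27 prior degrees of freedom), adjusted by Benjamini-Hochberg over all genes, or over 45037 probe sets for single probe sets. Alternatives changed the choice of probe set, the filter on dim or bright genes, the variance model, array weights, the normalization, the threshold and, in turn, each array. The steps were tested on simulated data. Figures were drawn with matplotlib 3.10.9 in Python 3.11.15. Of each further list, up to 3 called genes per direction with the smallest p were named. Members and lists were chosen with earlier results of these data known. Promoter windows came from RefSeq, of 300 bases each.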

Additional observations from a re-analysis of the deposited data

Results flagged for a closer look

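Of 80 groups examined (40 members in 2 groups), 4 held an array far from its fellows by Dixon's rule at 95%, which chance flags in about 1 of 20 groups. The TAC value of Bop1 in TAC replicate 4 was 9.48, against 9.32 for the next. Sham replicate 2 was lowest for Nop10, at 12.92 against 13.04 for the next. Sham replicate 5 was highest for Rrp1b, at 9.17 against 9.05. Sham replicate 1 was lowest for Myc, at 6.30 against 6.74, and the rise of Myc was 1.12 without it (limma adjusted p = 0.0552).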

How the results depend on the processing

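Over all probe sets, or without _x_at and _s_at probe sets where possible, 1 member was lower in place of 2. Of all genes 10.7% and 12% were lower in these settings. With array weights 4 members were lower, beside 16.7% of all genes. With cyclic loess 17 members were higher in place of 11, beside 13.8% of all genes. An adjusted p below 0.01 left 5 members, 5 higher and 0 lower (limma, with 1356 of all genes higher and 1252 lower), and a difference of at least 1.5-fold left 3, all higher (Myc, Rrp12 and Nhp2), and 0 lower. At 1.5-fold 5.39% of all genes were higher and 3.53% lower. Leaving out 1 array gave 8 (without TAC replicate 3) to 16 (without sham replicate 2) called members, with 0 (without TAC replicate 2 or 3) to 3 lower. Of the other probe sets, 1 was lower in place of 2 with a trend and robust fitting or cyclic loess. Below 0.01, 6 higher and 0 lower passed, and at 1.5-fold 5 higher and 0 lower passed. On leaving out 1 array 0 to 2 were lower (0 without any but sham replicate 2 or TAC replicate 4). The shares of all probe sets in these settings were not counted, so these counts have no background beside them. These alternatives were chosen after seeing the data. Of the 213 genes of the further lists, 17 were lower in place of 10 when arrays were centred on the median, beside 16% of all genes. On leaving out 1 array 5 to 14 were lower (5 without TAC replicate 3, 6 without TAC replicate 2 or sham replicate 4). Of all genes 8.82%, 9.56% and 10% were lower without TAC replicate 3, TAC replicate 2 and sham replicate 4. Centring moved the median of all genes from 0.00 to -0.05 and that of the members to 0.11.

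No called member changed direction under any alternative. Uncalled members near 0 did. With the mean of probe sets Utp15 (0.0161) and Ebna1bp2 (0.0230) changed sign. Below a level of 13 Nop10 (-0.00126) changed sign. Without _x_at or _s_at probe sets Noc4l (-0.111) changed sign. With array weights Polr1b (-0.111), Nop10 (-0.0103), Utp15 (0.0380), Nob1 (-0.0502) and Nle1 (-0.0745) changed sign. Centred on the median Polr1b (-0.0376), Ubtf (-0.00015), Nop56 (-0.0286), Nop10 (-0.0344), Noc4l (-0.0160), Nob1 (-0.0101), Nle1 (-0.0386) and Nolc1 (-0.0181) changed sign. With cyclic loess Polr1b (-0.00754), Nle1 (-0.00938) and Mybbp1a (0.00900) changed sign. Leaving out 1 array gave ranges across 0 for Nop56 (-0.0398 to 0.0860), Utp15 (-0.0669 to 0.0303), Polr1b (-0.161 to 0.106), Nop10 (-0.00991 to 0.0370), Nob1 (-0.0321 to 0.120), Nle1 (-0.118 to 0.134), Utp20 (-0.0774 to 0.00635), Ebna1bp2 (-0.0702 to 0.00553), Nolc1 (-0.0142 to 0.0985), Mybbp1a (-0.0743 to 0.0319) and Noc4l (-0.00129 to 0.0895). The cause of these shifts was not tested. No paired analysis was possible because the labels carry no replicate numbers, and those used here only name arrays. Few arrays and bright probe sets near the top of the scale limit small differences.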
